A study of Mus musculus with 17 samples.

Results

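The lysosome and V-ATPase genes are 44 named genes, all of which were found among the 41388 genes of the deposited count tables. They were chosen by symbol, with no threshold on a measured value but with earlier results of these data known, and fall into 10 groups: 7 V0 and 8 V1 subunits of the proton pump, 2 accessory proteins of the pump, 8 cathepsins, 2 other lysosomal peptidases, 5 glycosidases, 2 lipid and thioester hydrolases, 2 precursor proteins, 6 membrane proteins and 2 transcription factors. The 17 RNA-seq libraries came from bone marrow macrophages (BMMs) and from preosteoclasts (preOCs, called OC in the library names), which are BMMs kept for 24 h in M-CSF with 100 ng/ml RANKL. Bap1flox cells carried floxed Bap1 alleles without Cre, and Bap1LysM cells carried the same floxed alleles with a Cre placed in the lysozyme gene Lyz2, which is active in macrophages, neutrophils and their precursors. There were 3 BMM libraries of each genotype, 6 Bap1flox preOC libraries (1 to 6) and 5 Bap1LysM preOC libraries (1, 2, 4, 5 and 6). The mice of the preOCs were 20-week-old males, and the age of the mice of the BMMs is not given in the sources used here. Bap1 encodes a deubiquitinase of histone H2A, and the series asked what its loss in myeloid cells does to the transcripts of the precursors of the bone-resorbing osteoclast.

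Lysosomes break down proteins, glycans and lipids with hydrolases that need an acid lumen, and the V-ATPase provides the acid. Its V1 sector in the cytosol hydrolyses ATP and turns a rotor, and its V0 sector in the membrane carries protons. The osteoclast places this pump in its ruffled border and secretes acid and lysosomal enzymes onto bone, so the same machinery serves digestion inside the macrophage and resorption outside the osteoclast. TFEB and TFE3 are transcription factors of lysosomal genes that bind an E-box-like motif.

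Depth ran from 37967542 to 61369441 counts per library. Levels are given as CPM, the reads of a gene relative to the depth of the library, with TMM scaling over the 17 libraries, and between genes as RPKM, the same values per kilobase of exon. These properties of the libraries stood apart from the groups and are given here before the results. The libraries labelled Bap1LysM BMM 1 and Bap1LysM OC 1 held Lyz2 transcripts at 42.8% and 75.1% of the Bap1flox mean, against at most 0.436% in the other Bap1LysM libraries. The study's methods give Bap1LysM mice as Cre+/-, which leaves a Lyz2 allele without the Cre. Which of the Bap1LysM libraries had the stated genotype is therefore open to doubt. All are grouped by their labels, with values without Bap1LysM BMM 1, OC 1 or both given beside the comparisons that contrast Bap1LysM libraries. Bap1 counts, which cover all exons of the gene and do not separate the deleted ones, were 83.6 to 86.973 CPM in Bap1flox BMMs, 77.7 to 84.4 in Bap1LysM BMMs, 70.7 to 88.1 in Bap1flox preOCs and 58.7 to 81.8 in Bap1LysM preOCs, so that the genotypes overlapped in both BMMs and preOCs. Without the libraries that hold Lyz2 transcripts the BMMs no longer overlapped, with the others of Bap1LysM at 77.7 and 78.2 CPM, and the preOCs still did. In CPM without TMM scaling the BMM genotypes did not overlap with all libraries kept either, at 82.1 to 84.4 in Bap1flox and 74.8 to 77.1 in Bap1LysM, and the preOCs did. Mitochondrial genes took 0.481 to 1.07% of the counts in libraries 1 to 3 and 2.36 to 5.26% in preOC libraries 4 to 6, whose files also carry another form of name. Of the fixed cell type markers, the 10 osteoclast genes summed to 241 to 386 CPM in BMMs, where Oscar, Dcstamp, Ocstamp and Calcr were at or under 1 CPM, and to 6064 to 16380 CPM in preOCs. The 8 macrophage genes, all of them detected, summed to 8861 to 12250 CPM in BMMs and 3654 to 5912 CPM in preOCs. The 9 neutrophil genes summed to 63.9 to 185 CPM in Bap1flox preOCs and 176 to 626 CPM in Bap1LysM preOCs, with Ly6g at or under 1 CPM in every group. The 6 stromal genes summed to 100.2 to 2731 CPM over all libraries, and the lists of B or plasma cells, dendritic cells, mast cells or basophils and erythroid cells to at most 11.5 CPM. The part of these markers in the results was not tested, and in bulk RNA fewer cells of a type cannot be told apart from less RNA per cell.

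Promoter sequence was compared first, because TFEB and TFE3 are members and the members are candidate carriers of their motif. RefSeq (GRCm38.p6) gave a window from 250 bases before to 50 bases after the start for 36 of the 44 members. The palindrome CACGTG, read the same on both strands, lay in the windows of 13 of the 36 members (36.11%) and of 8.093% of the 27025 genes with an entry. Of its 4 palindromic extensions by a base on either side, TCACGTGA lay in 7 of 36 members (19.44%) against 1.125% of all genes, and ACACGTGT, CCACGTGG and GCACGTGC in 0 of 36 against 0.333, 0.91 and 0.47%. The starts of the RefSeq entries are not always the outermost start of the gene in the GENCODE M21 annotation. Among the carriers of CACGTG the start used lay 13165 bases inside Atp6v0e, 900 inside Ctsa for the entry with the copies shown, 446 inside Atp6v1a, 370 inside Ctsl, 211 inside Ctsd, 120 inside Gla and, for 1 of 2 entries, 721 inside Lgmn. The windows around TCACGTGA are shown, with the motif in capitals and 10 bases on either side, since these are the members that share it.
Atp6v0d1, chr8:105566051-105566078, minus strand: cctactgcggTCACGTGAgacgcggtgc
Atp6v0e, chr17:26676388-26676415, plus strand: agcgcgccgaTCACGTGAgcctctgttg
Atp6v1a, chr16:44139374-44139401, minus strand: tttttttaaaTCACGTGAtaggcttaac
Ctsa, chr2:164833750-164833777, plus strand: gagcaaactgTCACGTGAtgcagatgct
Ctsa, chr2:164833767-164833794, plus strand: atgcagatgcTCACGTGAccagagctac
Ctsd, chr7:142387909-142387936, minus strand: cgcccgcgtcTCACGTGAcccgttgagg
Gla, chrX:134601183-134601210, minus strand: gagatctcggTCACGTGAgcaactctcg
Gla, chrX:134601216-134601243, minus strand: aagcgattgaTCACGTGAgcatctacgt
Mcoln1, chr8:3500463-3500490, plus strand: ggcgccccgcTCACGTGAccgcggcgca
Counted from the start of the RefSeq entry, the motif of Atp6v0d1 began 4 bases before the start and that of Mcoln1 46 bases before it, while Atp6v0e held it 2 bases after the start. Ctsa held a copy on either side of its start, 13 bases before and 4 bases after, and Gla held copies 195 and 228 bases before. The copies of Ctsd and Atp6v1a began 99 and 132 bases before the start. A match describes these letters in these windows, and binding was not measured.

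The levels of the members spanned a wide range. By RPKM the most abundant in Bap1flox BMMs was Ctsd, the aspartic protease of the lysosome, at 5362 ± 603 (SD, n = 3), followed by Psap, the precursor of the saposins that present lipids to hydrolases, at 4767 ± 277, and the cysteine protease Ctsb at 3367 ± 365. In Bap1flox preOCs the glycoprotein gene Gpnmb led at 2227 ± 753 (SD, n = 6), a value within 1 SD of that of Ctsd, 1836 ± 249. The pump was lower. Atp6v0c, which encodes the proteolipid of the proton ring, was the highest V0 subunit at 145 ± 3.66 RPKM in Bap1flox BMMs, and Atp6v1e1, a peripheral stalk subunit, the highest V1 subunit at 124 ± 3.03, next to Atp6v1g1 at 122 ± 2.87. Of the accessory proteins Atp6ap1 was higher, at 160.4 ± 5.32 RPKM. Lgmn (asparaginyl endopeptidase), Hexa (alpha subunit of beta-hexosaminidase), Asah1 (acid ceramidase) and Tfe3 led their groups at 858 ± 27.986, 921 ± 34.3, 92.7 ± 13.1 and 29.8 ± 2.49 RPKM. Atp6v0e2, a second form of the V0 subunit e, stayed at or under 0.321 CPM in every library and was not tested, so that 43 members passed the filter of 1 CPM.

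Together the members took 6.65 to 7.14% of all counts in Bap1flox BMMs and 3.80 to 5.13% in Bap1flox preOCs. The sums of the V-ATPase genes and of the other members ran in opposite directions. The V-ATPase genes took 0.390 to 0.397% of the counts in Bap1flox BMMs and 0.559 to 0.678% in Bap1flox preOCs, while the other 27 members took 6.25 to 6.75% and 3.13 to 4.57%. Groups within these sums differed. The V1 subunits took 0.168 to 0.175% in Bap1flox BMMs and 0.286 to 0.421% in preOCs. The V0 subunits took 0.159 to 0.163% and 0.147 to 0.214%, which overlap. The hydrolases and their activators took 5.20 to 5.91% and 2.03 to 2.94%, and the membrane proteins 0.804 to 1.01% and 0.900 to 1.61%. The membrane protein shares overlap, with a higher mean in preOCs. In Bap1LysM the V-ATPase share went from 0.419 to 0.423% in BMMs to 0.570 to 0.720% in preOCs. The share of the other members was 5.76 to 7.59% in Bap1LysM BMMs and 2.68 to 5.59% in Bap1LysM preOCs, where the library labelled OC 1 was the highest and the other 4 lay at or under 3.78%.

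**Figure D1:**
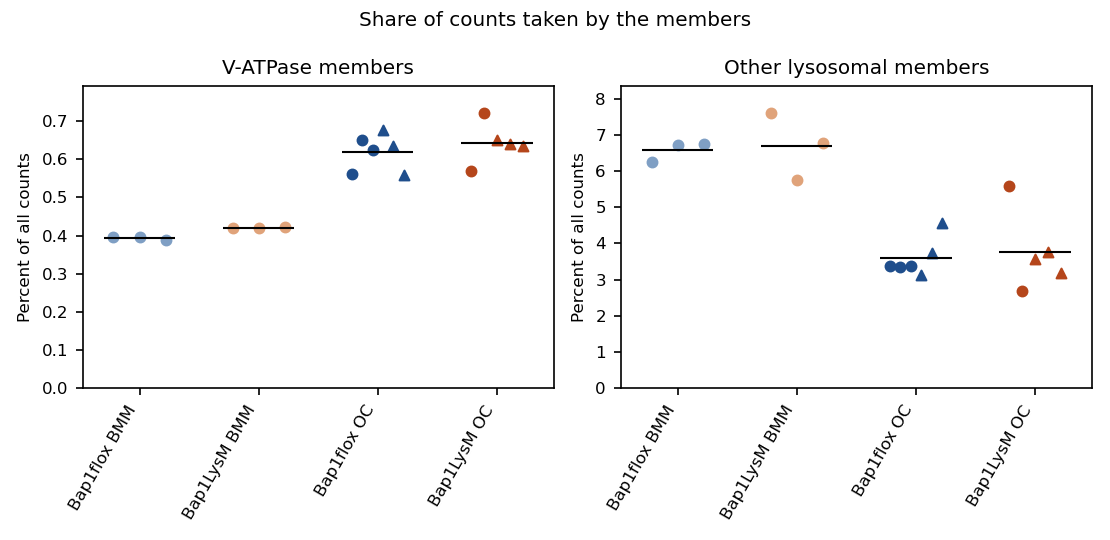
Percent of all counts taken by the 17 V-ATPase genes (left) and the 27 other members (right), 1 point per library, with circles for libraries 1 to 3, triangles for preOC libraries 4 to 6 and a line at the group mean. The V-ATPase share is higher in every preOC library than in every BMM library (0.559 to 0.720% against 0.390 to 0.423%), and the share of the other members is lower (2.68 to 5.59% against 5.76 to 7.59%).

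**Figure D2:**
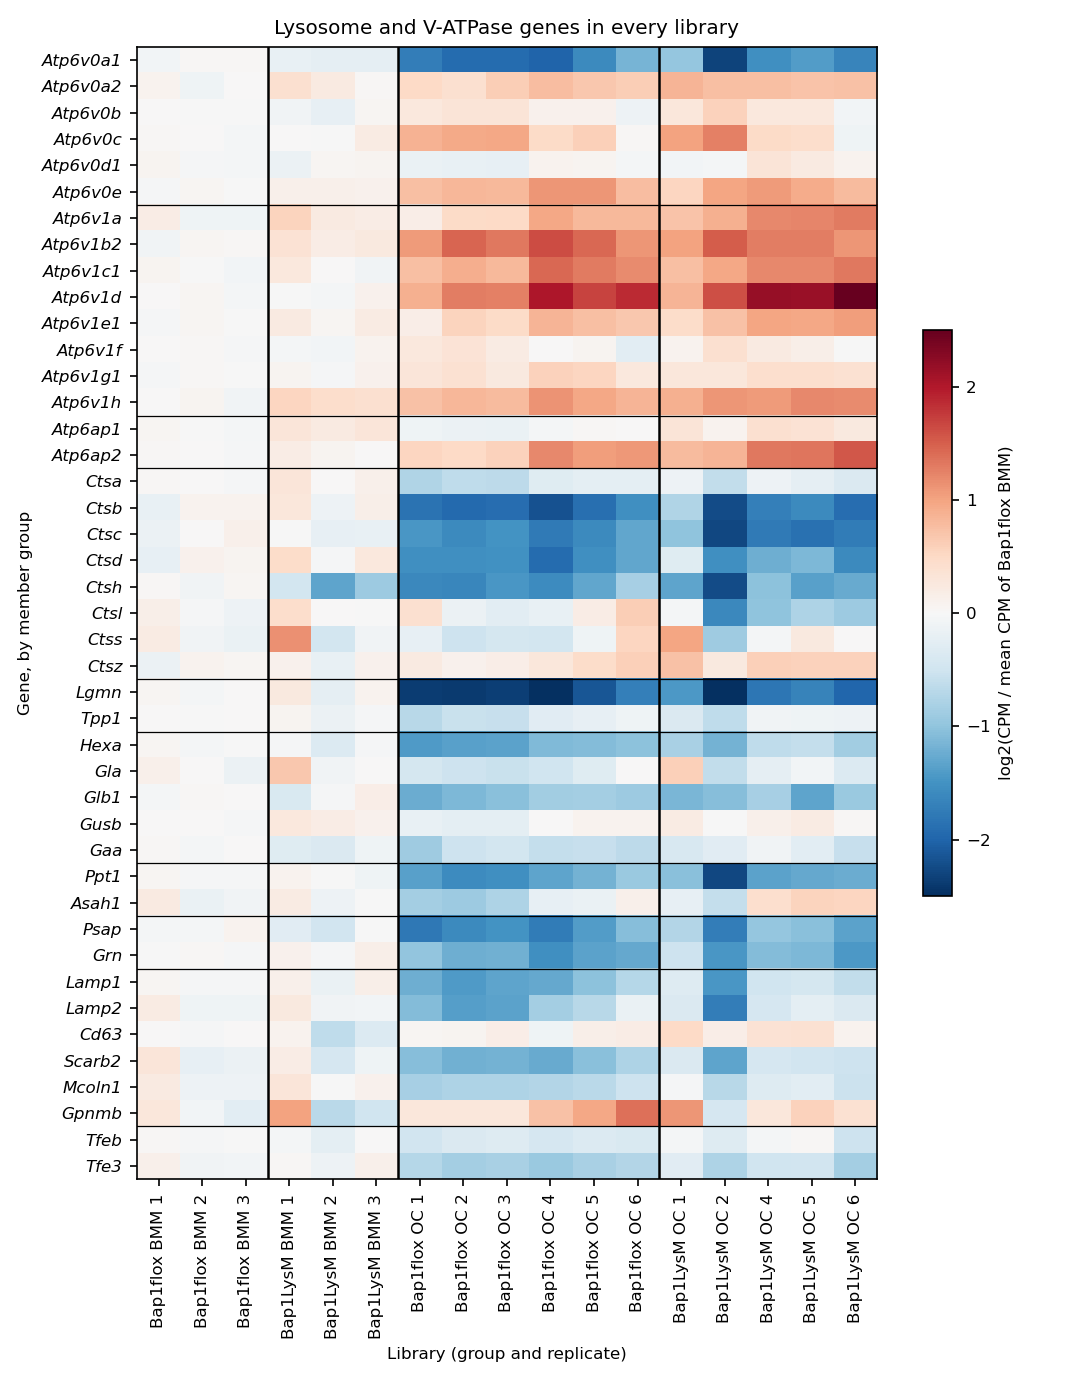
Level of each of the 43 tested members (rows, by group) in each of the 17 libraries (columns), as log2 of CPM over the mean CPM of Bap1flox BMMs, with red for higher, blue for lower and the colour scale capped at either end. Most V-ATPase genes are red and most hydrolases blue in the preOC libraries of both genotypes, and Atp6v0a1 is blue among the V-ATPase genes.

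The response to RANKL was tested within libraries 1 to 3, the only ones with BMMs, by the quasi-likelihood test of edgeR, with p adjusted over 13637 genes (Benjamini-Hochberg). In Bap1flox 13 of 43 members rose and 22 fell, where 29.4% of all genes tested rose and 28.7% fell. All 13 that rose were V-ATPase genes, and 21 of the 22 that fell were not. Of the 16 V-ATPase genes tested 13 rose and 1 fell, with a median log2 fold change of 0.46, and of the 27 others 0 rose and 21 fell, with a median of -0.84, where the median of all genes tested was -0.03. The 6 members that did not pass outside the V-ATPase were Ctsl, Ctss, Ctsz, Gla, Cd63 and Gpnmb, and 0 of the 27 reached an unadjusted p under 0.05 with a higher level. With the replicate number as a block 12 members rose and 23 fell, where 29.7% and 30.3% of all genes did. Atp6v1a and Gusb then missed the threshold (adjusted p = 0.075 and 0.0582), and Gla and Ctss passed as lower (adjusted p = 0.00626 and 0.019).

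All 8 V1 subunits rose in Bap1flox by the test without the block, 7 of them also with it, by log2 fold changes of 0.27 to 1.30. Atp6v1b2, the B subunit of the ATP-hydrolysing head, was at 406, 445 and 441 CPM in BMMs and 906, 1186 and 1075 CPM in preOCs 1 to 3 (log2 fold change 1.30, SE 0.15, adjusted p = 7.70e-05). Every preOC library lay above every BMM library. Atp6v1d, a subunit of the central rotor, was at 112, 115 and 108 CPM in BMMs and 206, 273 and 269.6 CPM in preOCs 1 to 3 (log2 fold change 1.16, SE 0.18, adjusted p = 0.000409). In preOCs 4 to 6, which took no part in the test, it stood at 455, 361 and 409 CPM, above those of libraries 1 to 3. Atp6v1c1, a subunit that ties the head to the stator, went from 151, 143 and 136 CPM to 240.1, 268 and 253 CPM (log2 fold change 0.82, SE 0.11, adjusted p = 0.000174). The groups did not overlap. The catalytic A subunit, Atp6v1a, was among the smaller changes at a log2 fold change of 0.39, and its BMM and preOC libraries overlapped, with 682, 550.0 and 554 CPM against 668, 832 and 838 CPM.

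Of the V0 subunits 4 of 6 rose and 1 fell. Atp6v0c was at 500.3, 491 and 476 CPM in Bap1flox BMMs and 895, 940.2 and 962 CPM in preOCs 1 to 3 (log2 fold change 0.93, SE 0.10, adjusted p = 5.46e-05). Preosteoclasts 4 to 6 were lower, at 679, 736 and 499.6 CPM, and so nearer to the BMMs. A pseudogene copy, Atp6v0c-ps2, took up to 178.574 CPM, so part of these reads may be split between near-identical sequences. The a subunit holds the path of the protons, and its 2 forms among the members changed in opposite directions, which brought their levels closer together. Atp6v0a1 fell from 464, 496 and 499 CPM to 146, 128 and 129 CPM (log2 fold change -1.85, SE 0.26, adjusted p = 0.000247), and Atp6v0a2 rose from 35.5, 31.3 and 33.8 CPM to 47.4, 44.001 and 51.5 CPM (log2 fold change 0.51, SE 0.11, adjusted p = 0.00258). Both differences were larger than the spread between libraries. The ratio of Atp6v0a1 to Atp6v0a2 in RPKM was 6.70 ± 0.652 (SD, n = 3) in Bap1flox BMMs and 1.37 ± 0.334 (n = 6) in Bap1flox preOCs, and 4.94 ± 0.576 (n = 3) and 1.38 ± 0.399 (n = 5) in Bap1LysM. Without the libraries that hold Lyz2 transcripts the ratio in Bap1LysM was 5.20 ± 0.481 (n = 2) and 1.25 ± 0.316 (n = 4). The d subunit Atp6v0d1, the cap of the ring, did not pass the test (log2 fold change -0.18, SE 0.08, adjusted p = 0.0717, 95% interval -0.36 to -0.01). Of the accessory proteins Atp6ap2, known also as the prorenin receptor, rose (log2 fold change 0.54), and Atp6ap1 did not pass (log2 fold change -0.14). Atp6v0d1 and Atp6ap1 were both called lower with voomWithQualityWeights and in a fit of the Bap1flox libraries alone. Atp6v0d1 was also called lower with DESeq2 and without Bap1LysM BMM 1.

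Genes outside the members, named for their known role in osteoclasts and not by the naming rule, Tcirg1 (the a subunit of the osteoclast pump), Atp6v0d2 (its d subunit) and Ctsk (the collagen-degrading cathepsin) rose in Bap1flox by 0.77, 2.90 and 7.46 on the log2 scale. They belong to a wider list of lysosomal and pump genes, in which 2 of 4 tested pump genes rose and 2 fell, and 1 of 7 tested proteases, Ctsk, rose and 5 fell.

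Of the 8 cathepsins 5 fell in Bap1flox and 0 rose. Lgmn, the asparaginyl endopeptidase that cleaves several cathepsins to their mature form, fell most. It was at 2052, 1923 and 2000.2 CPM in BMMs and 384, 380.2 and 392 CPM in preOCs 1 to 3 (log2 fold change -2.37, SE 0.35, adjusted p = 0.000322). Ctsb was at 13963, 16894 and 17016 CPM and 4446, 4142 and 4279 CPM (log2 fold change -1.89, SE 0.31, adjusted p = 0.000645). The groups were far apart in both genes. Psap was at 12573, 12714 and 13954 CPM in BMMs and 3790.1, 4352 and 4673 CPM in preOCs (log2 fold change -1.61, SE 0.24, adjusted p = 0.000341). Ctsd, Ctsh (an aminopeptidase) and Ctsc (dipeptidyl peptidase I, which activates serine proteases of leukocytes) fell by 1.53, 1.56 and 1.51 on the log2 scale, and Ctsa, the carboxypeptidase that protects beta-galactosidase, by 0.68. Ctsl and Ctss, cysteine proteases that also process the MHC class II invariant chain, and Ctsz, a carboxypeptidase, did not pass, at log2 fold changes of 0.02, -0.38 and 0.17 with 95% intervals of -0.73 to 0.77, -1.44 to 0.69 and -0.14 to 0.48. The serine peptidase Tpp1 fell by 0.61.

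Glycosidases fell in 4 of 5 cases: Hexa by 1.37, Glb1 (beta-galactosidase) by 1.13, Gaa (acid alpha-glucosidase, which degrades glycogen) by 0.61 and Gusb (beta-glucuronidase) by 0.22 on the log2 scale, while Gla (alpha-galactosidase) stood at -0.50 with a 95% interval of -1.12 to 0.13. Ppt1, which removes fatty acids from proteins, fell by 1.49, Asah1 by 0.84 and Grn, the granulin precursor, by 1.13. Among membrane proteins Lamp1 and Lamp2, the main glycoproteins of the lysosomal membrane, fell by 1.32 and 1.26, Scarb2, the receptor that carries beta-glucocerebrosidase to the lysosome, by 1.15 and Mcoln1, a calcium channel, by 0.79. The tetraspanin gene Cd63 and Gpnmb did not pass, at 0.09 and 0.29. Both factors fell, Tfeb by 0.38 and Tfe3 by 0.78. Of the 7 members with TCACGTGA shown above, Atp6v0e and Atp6v1a rose, Ctsa, Ctsd and Mcoln1 fell, and Atp6v0d1 and Gla did not pass.

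Preosteoclasts 4 to 6 of Bap1flox, which were not in the test, lay beyond all BMM libraries in the tested direction for 10 of the 13 members that rose and 20 of the 22 that fell. Over all genes that rose or fell the share was 86.5% and 83.5%. The exceptions were Atp6v0b, Atp6v0c, Atp6v1f, Gusb and Asah1. The library set and the mitochondrial share differ between these libraries and the BMMs, and their part was not tested.

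In Bap1LysM 14 of 43 members rose and 16 fell with RANKL, where 21.2% of all genes tested rose and 17.7% fell. Of the V-ATPase genes 12 rose and 1 fell, with a median log2 fold change of 0.53, and of the 27 others 2 rose and 15 fell, with a median of -0.66. The 2 that rose outside the pump were Ctsz (log2 fold change 0.49, SE 0.15, adjusted p = 0.0294) and Cd63 (log2 fold change 0.60, SE 0.18, adjusted p = 0.0235). Both calls were lost without Bap1LysM OC 1, without Bap1LysM BMM 2, with voomWithQualityWeights and in a fit of the Bap1LysM libraries alone, that of Cd63 also without Bap1LysM BMM 3, and that of Ctsz also with no filter on low counts and without both libraries that hold Lyz2 transcripts. With the replicate number as a block 12 members rose and 20 fell, where 17.3% and 17.2% of all genes did. Atp6v1a and Atp6v1g1 then no longer passed (adjusted p = 0.155 and 0.0718), and Asah1, Ctsl, Mcoln1 and Scarb2 passed as lower. Atp6v1d was at 111, 108 and 121 CPM in Bap1LysM BMMs and 202 and 341 CPM in preOCs 1 and 2 (log2 fold change 1.26, SE 0.19, adjusted p = 0.000974). Atp6v0c was at 491, 484 and 562 CPM and 989 and 1167 CPM (log2 fold change 1.08, SE 0.11, adjusted p = 0.000126). Preosteoclasts 1 and 2 stood above each BMM library in both. Atp6v1b2 was at 553, 488 and 511 CPM and 868 and 1232 CPM (log2 fold change 1.02, SE 0.16, adjusted p = 0.00103), and Atp6v1c1 at 173, 145 and 135 CPM and 242 and 282 CPM (log2 fold change 0.80, SE 0.12, adjusted p = 0.000854). These were the 4 V-ATPase genes named in Bap1flox as well.

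Among the members that fell in Bap1LysM, Lgmn was at 2359, 1703 and 2104 CPM in BMMs and 741 and 222 CPM in preOCs 1 and 2 (log2 fold change -2.09, SE 0.40, adjusted p = 0.00303). Ppt1 was at 169, 157 and 147 CPM and 76.3 and 32.7 CPM (log2 fold change -1.53, SE 0.28, adjusted p = 0.00227). The preOC libraries lay below every BMM library in both, but differed from each other widely. Ctsb was at 19409, 14544 and 17564 CPM and 9504 and 3391 CPM (log2 fold change -1.41, SE 0.36, adjusted p = 0.0114), and Ctsc at 491, 429.7 and 432 CPM and 245 and 102 CPM (log2 fold change -1.38, SE 0.29, adjusted p = 0.00472). With a library left out the log2 fold changes ran from -3.21 to -1.47 in Lgmn and -2.27 to -1.04 in Ppt1. Those of Ctsb ran from -2.34 to -0.85 and those of Ctsc from -2.15 to -0.88. Ctsb and Ctsc did not pass in a fit of the Bap1LysM libraries alone. In all 4 genes the library labelled OC 1, which holds Lyz2 transcripts, was the higher. Without it 12 members rose and 21 fell, with a median log2 fold change of -0.60, where 22.8% of all genes rose and 22.1% fell. Without preOC 2 in its place 11 rose and 8 fell, with a median of -0.06, where 12.9% and 10.3% of all genes did. Either fit leaves 1 Bap1LysM preOC library, which is assumed to vary like the libraries of the other groups. With the libraries labelled 1 of both BMMs and preOCs left out 13 rose and 22 fell, with a median of -0.53, where 22.3% and 21.7% of all genes did, and this fit too rests on 1 Bap1LysM preOC library. In preOCs 4 to 6, outside the test, 11 of the 14 that rose and 14 of the 16 that fell lay beyond all Bap1LysM BMM libraries, against 82.9% and 81.1% of all genes that rose or fell. The exceptions were Atp6v0b, Atp6v0c, Cd63, Ctsh and Tpp1.

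**Figure D3:**
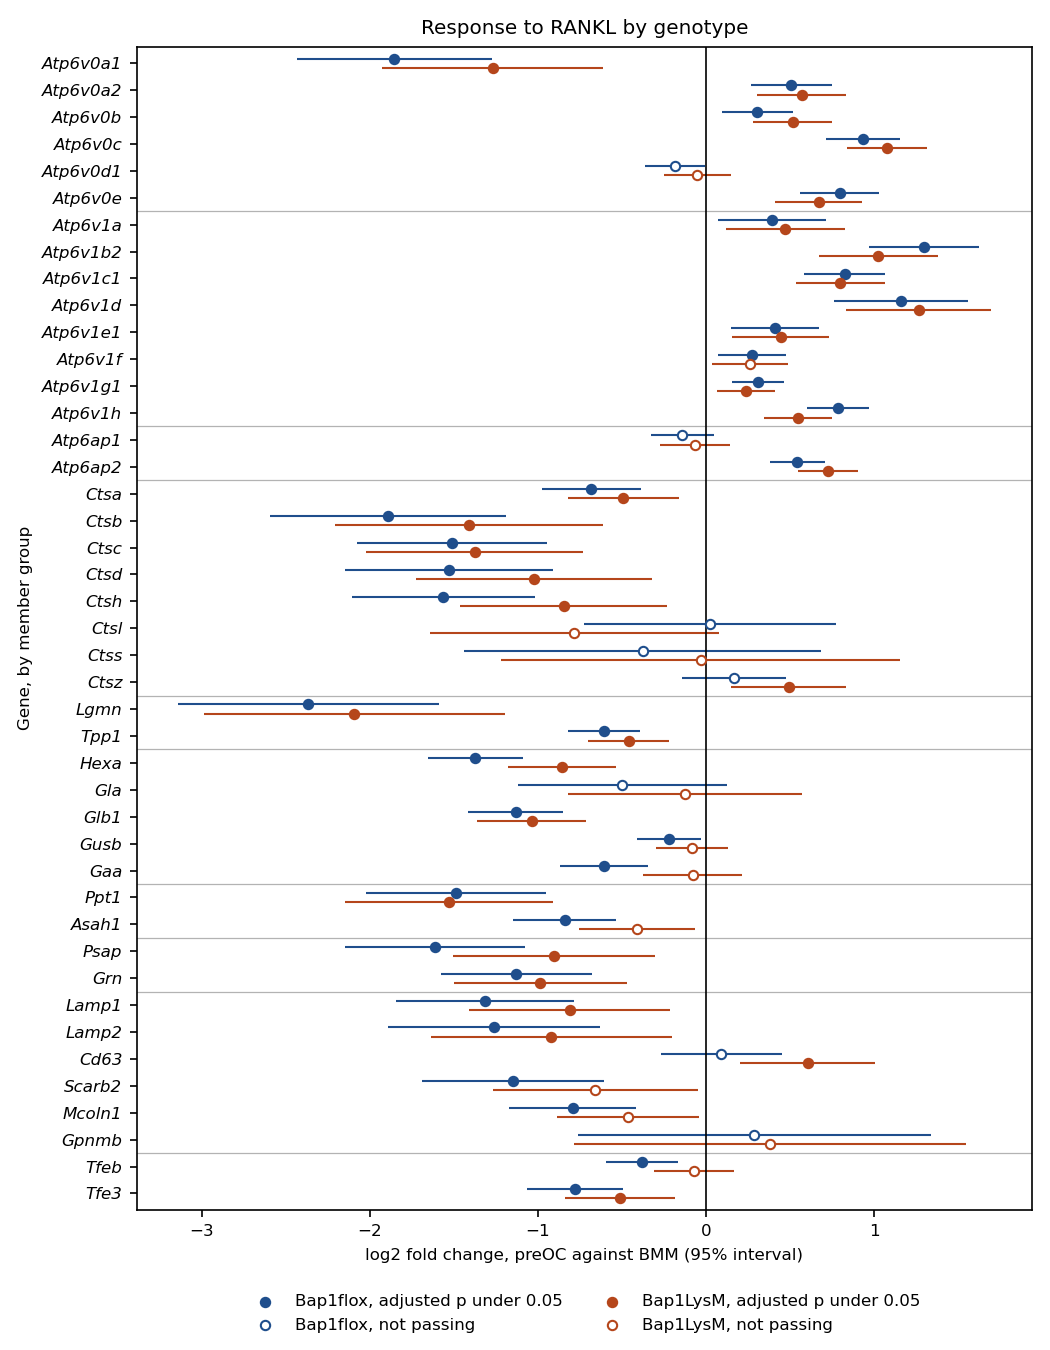
Log2 fold change of preOCs against BMMs within libraries 1 to 3, for each of 43 members (rows, by group), in Bap1flox (blue) and Bap1LysM (orange), with 95% intervals and filled points for an adjusted p under 0.05. V-ATPase genes lie mostly to the right of 0 and the other members mostly to the left in both genotypes, with Atp6v0a1 at -1.85 and -1.27.

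Whether the responses differed between the genotypes was tested as an interaction in the same fit. With edgeR 0 of 43 members passed in either direction, and 0.0% of all 13637 genes did. At an unadjusted p under 0.05 there were 2 members, Hexa and Gaa, and 12.6% of all genes, and DESeq2 called 63 genes higher and 50 lower, with 0 members among them. The median difference of the responses was 0.18 over the members and 0.04 over all genes. The 2 largest differences in each direction, none of which passed, were in Ctsh (log2 fold change 0.71, SE 0.36, adjusted p = 0.445), Psap (log2 fold change 0.71, SE 0.35, adjusted p = 0.438), Ctsl (log2 fold change -0.81, SE 0.51, adjusted p = 0.535) and Atp6v1b2 (log2 fold change -0.27, SE 0.22, adjusted p = 0.624). Their 95% intervals were -0.09 to 1.51, -0.07 to 1.49, -1.94 to 0.33 and -0.75 to 0.21. In Bap1LysM Ctsh went from 108, 59.3 and 78.8 CPM in BMMs to 59.4 and 31.4 CPM in preOCs 1 and 2, and in Bap1flox from 150.3, 139 and 153 CPM to 48.4, 47.4 and 53.8 CPM. The preOCs of the genotypes overlapped and the BMMs did not. Psap in Bap1LysM was at 10745, 9404 and 12951 CPM and 7821 and 3935 CPM. Without Bap1LysM OC 2 there were 2 members higher and 25 at an unadjusted p under 0.05, with a median of 0.44, where 0.767% and 21.7% of all genes were. Without Bap1LysM OC 1 there were 0 and 8, with a median of 0.01, where 0.0147% and 15.3% of all genes were. In these fits too the spread of the lone Bap1LysM preOC library comes from the other groups.

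The genotype was compared next, Bap1LysM against Bap1flox, in all 11 preOC libraries. Of 43 members 2 were higher and 1 was lower, where 7.12% of the 12929 genes tested were higher and 8.68% lower. The members thus passed no more often than genes at large by this test. The median log2 fold change of the members was 0.18, with 32 of 43 above 0, against -0.01 over all genes, and 9 members reached an unadjusted p under 0.05, as did 30.5% of all genes. Without Bap1LysM OC 1 there were 2 members higher (Atp6ap1 and Atp6v1a) and 2 lower (Ctsc and Ctsl), where 10.7% of all genes were higher and 13.3% lower. With upper-quartile in place of TMM scaling 699 genes were higher and 1403 lower, against 921 and 1122, and the median of the members was 0.12. Genotypes did not overlap in 1 member, Atp6ap1, which was higher, and in 0 that were lower, where 4.11% and 5.38% of all genes did not overlap in the higher and the lower direction.

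Atp6ap1, a glycoprotein that helps to assemble and direct the pump, ranged from 434 to 495 CPM with a median of 459 in Bap1flox preOCs. In Bap1LysM preOCs 1, 2, 4, 5 and 6 it was at 604, 515, 642, 627 and 575 CPM. Every Bap1LysM library lay above every Bap1flox library (log2 fold change 0.32, SE 0.08, adjusted p = 0.014), and the call held with each of the 11 libraries left out in turn. Hexa ranged from 642 to 846 CPM with a median of 741 in Bap1flox preOCs and was at 975, 753, 1101, 1143 and 938 CPM in Bap1LysM preOCs (log2 fold change 0.37, SE 0.11, adjusted p = 0.0464). Bap1LysM preOC 2 lay within the Bap1flox range and the others above it, and the call held in 2 of the 11 fits with a library left out. Reads of Hexa could include some of Tmem202, which overlaps it on the other strand, since the strand setting of the counting is not stated.

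Ctsl was the member that was lower. It ranged from 1117 to 2048 CPM with a median of 1367 in Bap1flox preOCs and was at 1307, 443, 669, 788 and 719.6 CPM in Bap1LysM preOCs (log2 fold change -0.94, SE 0.26, adjusted p = 0.0298). The library labelled Bap1LysM OC 1 lay within the Bap1flox range and the other 4 below it. The call held in 5 of the 11 fits with a library left out, at log2 fold changes of -1.22 to -0.79. In the library set of replicates 4 to 6 alone it was also lower, and in replicates 1 to 3 alone it stood at -0.65 (adjusted p = 0.511). The other cathepsins did not pass, with log2 fold changes from -0.18 for Ctsc to 0.45 for Ctsd. The 14 V0 and V1 subunits did not pass either, with log2 fold changes from -0.13 for Atp6v1b2 to 0.43 for Atp6v1d and a median of 0.10. Atp6v1a and Atp6v1e1 passed as higher only in some other fits, such as that with the replicate number as a block.

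The members outside the pump had a median log2 fold change of 0.21 in preOCs. Those at an unadjusted p under 0.05 that missed the adjusted threshold were Asah1 (0.58, adjusted p = 0.126), Lamp1 (0.50, adjusted p = 0.0941), Scarb2 (0.47, adjusted p = 0.0592), Mcoln1 (0.33, adjusted p = 0.0767), Gaa (0.26, adjusted p = 0.105) and, in the pump, Atp6v1a (0.40, adjusted p = 0.0895). Asah1 ranged from 168 to 344 CPM with a median of 228 in Bap1flox preOCs and was at 274, 208, 419, 462 and 453 CPM in Bap1LysM preOCs, so that libraries 4 to 6 were the higher ones in both genotypes. Lamp1 ranged from 1077 to 1752 CPM with a median of 1209.8 in Bap1flox and was at 2308, 1053, 2044, 2139 and 1886 CPM in Bap1LysM preOCs. The genotypes overlapped in each of these genes.

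The preOC counts moved with the library set and with the test. With the library set as a term 7 members were higher and 1 lower, where 16.6% of genes were higher and 17% lower, and within replicates 4 to 6 alone 6 were higher and 2 lower (14.6% and 17.8%). Within replicates 1 to 3 alone, with fewer libraries, 0 and 0 passed. The share of all genes in that fit is not given here, so these counts say nothing particular to the members. The direction was positive in both sets for 27 of 43 members and negative in both for 7, against 38.1% and 37% of the 11948 genes tested in both. With the replicate number as a block 8 were higher and 1 lower (16.1% and 16.7%). Asah1, Atp6ap2, Atp6v1a, Atp6v1e1, Gaa and Scarb2 were called higher there and not by the test reported. With voomWithQualityWeights, the test the study used, 23 of 43 members were higher and 2 lower, where 26.8% of all genes were higher and 28.1% lower. The 23 were 7 pump genes and 16 others, among them Lamp1, Lamp2, Psap, Ctsd, Gaa, Tfeb and Tfe3. Without Bap1LysM OC 1, and with the library set as a term, 9 members were higher and 4 lower, where 18.5% of genes were higher and 20.5% lower, and the median was 0.08. Those lower were Ctsc, Ctsl, Gpnmb and Ppt1.

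**Figure D4:**
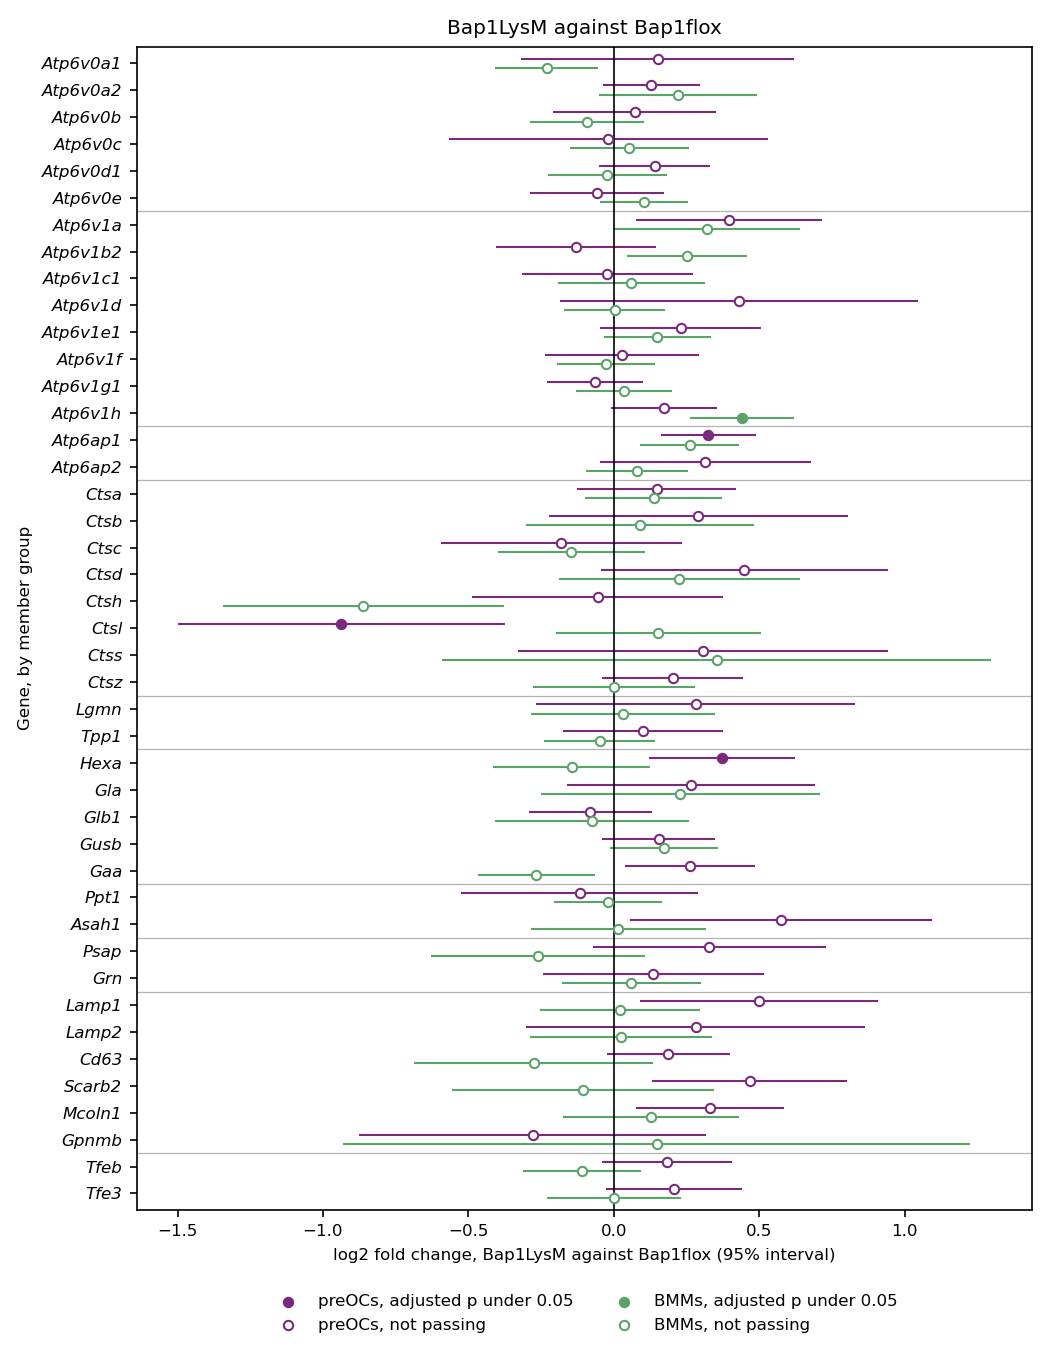
Log2 fold change of Bap1LysM against Bap1flox in preOCs (purple, 5 against 6 libraries) and in BMMs (green, 3 against 3), for each of 43 members (rows, by group), with 95% intervals and filled points for an adjusted p under 0.05. Atp6ap1, Hexa and Ctsl are filled in preOCs and Atp6v1h in BMMs, and 32 of 43 preOC points lie to the right of 0.

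Without RANKL, in BMMs, 1 of 43 members was higher in Bap1LysM and 0 were lower, where 1.31% of 13028 genes were higher and 4.01% lower. At an unadjusted p under 0.05 there were 6 members and 26.2% of all genes, and the median log2 fold change was 0.03 over the members and -0.01 over all genes. Without Bap1LysM BMM 1 there were 0 members higher and 1 lower (Ctsh), where 0.478% of all genes were higher and 2.37% lower. Atp6v1h, the H subunit that regulates the pump, was at 79.3, 82.9 and 74.4 CPM in Bap1flox BMMs and 114, 107 and 104 CPM in Bap1LysM BMMs (log2 fold change 0.44, SE 0.08, adjusted p = 0.0298). The genotypes did not overlap, and the call held in 1 of the 6 fits with a library left out, at adjusted p values of 0.0407 to 0.152. Atp6v1h overlaps Rgs20 on the other strand. With voomWithQualityWeights 2 members were higher and 2 lower, where 5.53% and 8.07% of genes were. With DESeq2 there were 3 and 2, where 6.76% and 9.1% of genes were. With the replicate number as a block 2 were higher (Atp6v1a and Atp6v1h) and 1 lower (Ctsh), where 5.47% of genes were higher and 10.7% lower. Ctsh was at 150.3, 139 and 153 CPM in Bap1flox BMMs and 108, 59.3 and 78.8 CPM in Bap1LysM BMMs (log2 fold change -0.86, SE 0.20, adjusted p = 0.0597). Those genotypes did not overlap either. Over all members the genotypes did not overlap in 6 that were higher and 3 that were lower, against 17.2% and 16.9% of all genes.

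**Figure D5:**
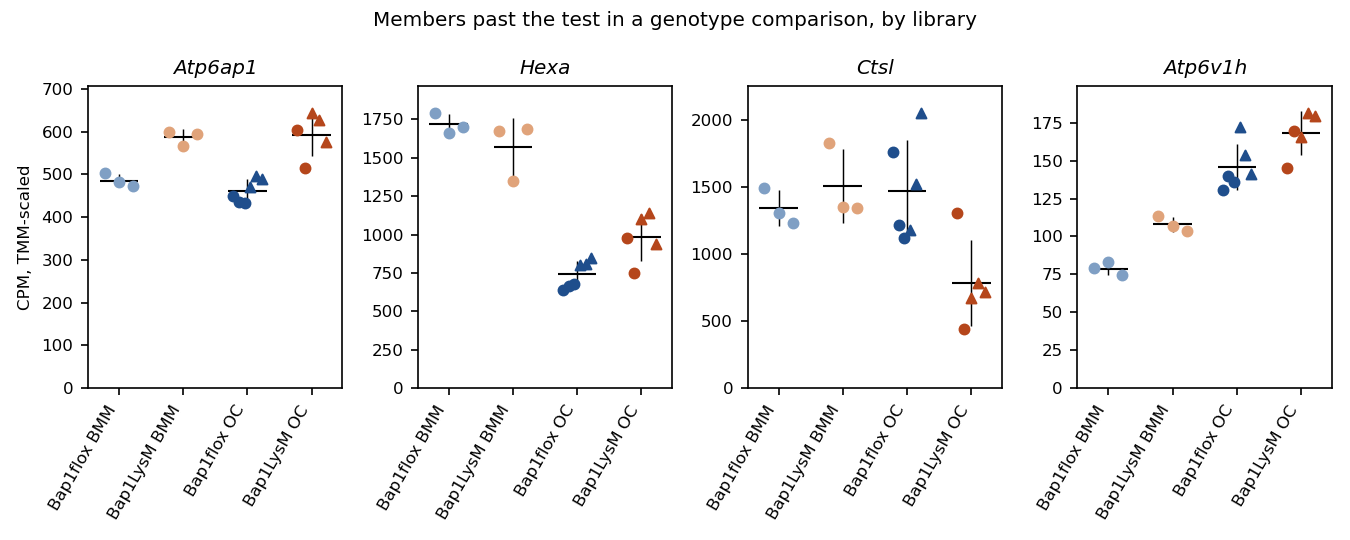
CPM of the 4 members that passed in a genotype comparison, 1 point per library, with circles for libraries 1 to 3, triangles for preOC libraries 4 to 6, a line at the group mean and a vertical bar of 1 SD. Atp6ap1 does not overlap between the genotypes in preOCs nor Atp6v1h in BMMs, while 1 Bap1LysM preOC library each of Hexa and Ctsl lies within the Bap1flox range.

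The list of 98 other lysosomal and pump genes gave the setting of these members. In preOCs 13 of the 87 tested were higher in Bap1LysM and 2 lower, with a median log2 fold change of 0.15, where 7.12% of all genes were higher and 8.68% lower. Rragd, a Rag GTPase that ties nutrient sensing to the lysosome, ranged from 7.29 to 15.1 CPM with a median of 10.046 in Bap1flox preOCs and from 19.6 to 42.3 CPM with a median of 41.1 in Bap1LysM preOCs (log2 fold change 1.73, SE 0.21, adjusted p = 0.000669). Npc1, which exports cholesterol from the lysosome, ranged from 218 to 287 CPM with a median of 251 and from 306 to 429.7 CPM with a median of 401 (log2 fold change 0.60, SE 0.10, adjusted p = 0.00261). The genotypes did not overlap in either gene. Tmem9, a membrane protein that binds the pump, ranged from 6.32 to 8.85 CPM with a median of 8.06 and from 3.14 to 6.23 CPM with a median of 3.34 (log2 fold change -0.98, SE 0.21, adjusted p = 0.00888), and Ctsf, a cysteine cathepsin, from 7.77 to 14.8 CPM with a median of 13.2 and from 4.51 to 9.33 CPM with a median of 7.66 (log2 fold change -0.87, SE 0.20, adjusted p = 0.0143). Ctsf overlapped between the genotypes and Tmem9 did not. Without Bap1LysM OC 1 there were 13 of 87 higher and 4 lower, where 10.7% of all genes were higher and 13.3% lower, and Rragd, Npc1, Tmem9 and Ctsf stood at log2 fold changes of 1.65, 0.57, -1.22 and -0.76, each past the threshold.

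In BMMs 1 of 87 genes of that list was higher (M6pr, a mannose 6-phosphate receptor, at a log2 fold change of 0.42) and 7 were lower, with a median of -0.03, where 1.31% of all genes were higher and 4.01% lower. Ctsf was at 23.4 to 28.2 CPM in Bap1flox and 5.7 to 9.33 CPM in Bap1LysM BMMs (log2 fold change -1.93, SE 0.21, adjusted p = 0.0121). Sort1, the sorting receptor sortilin, was at 157 to 189 and 68.953 to 91.002 CPM (log2 fold change -1.06, SE 0.13, adjusted p = 0.0149), and Smpd1, acid sphingomyelinase, at 49.1 to 52.1 and 28.7 to 29.5 CPM (log2 fold change -0.81, SE 0.07, adjusted p = 0.0101). The genotypes did not overlap in any of them. Tmem9 and Gm2a, the activator of ganglioside breakdown, were also lower, at log2 fold changes of -0.73 and -0.65. Without Bap1LysM BMM 1 there were 0 of 87 higher and 5 lower, where 0.478% and 2.37% of all genes were. The 5 were these, with Ctsf at -1.80, Sort1 at -0.95, Smpd1 at -0.80, Tmem9 at -0.75 and Gm2a at -0.76, and M6pr missed the threshold (log2 fold change 0.38, adjusted p = 0.0674). With RANKL in Bap1flox 14 of the 88 tested rose and 48 fell, with a median of -0.49, where 29.4% and 28.7% of all genes did. In Bap1LysM 16 rose and 28 fell, with a median of -0.24, where 21.2% and 17.7% of all genes did. Without Bap1LysM BMM 1 and OC 1, 17 of 87 rose and 39 fell, with a median of -0.40, where 22.3% and 21.7% of all genes did.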

How the data were processed

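RNA was sequenced as poly-A selected, paired-end libraries on a NovaSeq. Per the labels and the study's methods, the authors demultiplexed with bcl2fastq, aligned with STAR 2.5.1a to Ensembl release 76 of GRCm38 and used featureCounts 1.4.6-p5 to count the reads with a unique, unambiguous position in a gene. The strand setting is not given in the sources used here. The deposited counts are not normalized. The deposited CPM values equal count over library total, and the deposited RPKM values equal CPM over exonic kilobases; neither was used for tests. Gene symbols came from GENCODE M21 (GRCm38), which named 97.5% of the identifiers. Here 355 ribosomal RNA genes were left out, and a gene entered a fit if its CPM exceeded 1 in 4 or more libraries (preOC genotype) or 2 or more (other comparisons).

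Comparisons used edgeR 4.0.16 in R 4.3.3 (quasi-likelihood test, TMM factors, Benjamini-Hochberg adjustment over all genes tested, threshold 0.05), with limma 3.58.1 voomWithQualityWeights, DESeq2 1.42.0, other scalings and filters, the replicate block, the library set and each library left out as alternatives. Both RANKL responses and the interaction came from a single fit of 4 groups. Scripts were tested on simulated data. The study describes its preOC samples as biologically independent. Nothing in the sources used here says so of the BMM libraries, so p-values that rest on them measure a spread between libraries that may be technical. At these depths that spread, more than counting error, limits precision. Groups were read from the sample titles, and the library set from the form of the file names.

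Libraries with the same number were checked for shared deviations from their group means. Correlations were 0.34 to 0.685 between the preOC genotypes over all replicates and 0.304 to 0.494 between the BMM genotypes, and the labels do not say that the numbers pair. The tests reported therefore have no block, and members whose call changed with the block are named with the results, some without a blocked value. From the means of each library set the correlations were 0.315 to 0.397 in preOC replicates 1 and 2 and -0.142 to 0.011 in 4 to 6. Between BMMs and preOCs of Bap1flox they were 0.219 to 0.356 from the means of replicates 1 to 3, which the RANKL fits use, and -0.198 to 0.492 from the mean of all 6 preOCs. Between those of Bap1LysM they were 0.478 and 0.34 from the means within the library set, and 0.319 and 0.253 from the mean of all its preOCs. Deviations of Bap1LysM preOCs 1 and 2 from their own mean are equal and opposite, so values that rest on them are not independent. The members and gene lists were chosen with earlier results of these data known. Members were named in full where they passed the adjusted p, at most 4 per direction by log2 fold change, or, where none passed, the 2 largest per direction, and genes of the wider list where they passed with a fold change of 1.5, at most 5 per direction. Sequences were read from RefSeq tables of GRCm38.p6.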

Additional observations from a re-analysis of the deposited data

Results flagged for a closer look

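A single library stood apart from the rest of its group in 5 of 88 member and group combinations of preOCs, by the gap to its neighbour over the range of the group (Dixon's criterion at 95%). Chance marks about 1 in 20 such groups, so a number of this size is about what chance gives. Ctsd in the library labelled Bap1LysM OC 1 was at 11008 CPM, and the next highest of that group was at 6236.2 CPM. In Bap1flox OC 6 Ctsh was at 83.108 CPM and Ctss at 2852.4 CPM, with the nearest libraries at 60.124 and 1822.8 CPM. In Bap1LysM OC 2 Lamp2 was at 161.62 CPM and Scarb2 at 52.898 CPM, with the nearest libraries at 396.59 and 92.171 CPM. The first of these libraries also held Lyz2 transcripts at 75.1% of the Bap1flox mean, and the last had the lowest count total, 37967542. The part of either in these values was not tested.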

How the results depend on the processing

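The RANKL response in Bap1flox kept its counts of members within 1.5 times under every alternative run, and its 8 named members passed in all of them. Of the 180 alternative counts of members 129 stayed within 1.5 times and 51 did not, and of 447 alternative values of named members 418 kept direction and side of the threshold. Where no share of all genes is given for a setting, its count of members cannot be set against genes at large. In preOCs the members higher, 2 by the test reported, were 1 with upper-quartile factors, 0 with no filter on low counts, 23 with voomWithQualityWeights, 7 with DESeq2, 8 with the replicate block, 5 with all 17 libraries in a single fit, 7 with a term for the library set, 0 in replicates 1 to 3, 6 in replicates 4 to 6, and 9 with the set as a term and Bap1LysM OC 1 left out. With a library left out they were 1 to 6. Members lower in preOCs, 1 as reported, were 2 with voomWithQualityWeights, 0 in replicates 1 to 3, 2 in replicates 4 to 6, 4 with the set as a term and Bap1LysM OC 1 left out, and 0 to 2 with a library left out. In BMMs the members higher, 1 as reported, were 2 with voomWithQualityWeights, 3 with DESeq2, 2 with the replicate block and 0 to 1 with a library left out. Members lower in BMMs, 0 as reported, were 1 with upper-quartile factors, with no filter and with the replicate block, 2 with voomWithQualityWeights and with DESeq2, and 0 to 1 with a library left out. In Bap1LysM 8 members rose with RANKL under voomWithQualityWeights, 8 rose and 4 fell in a fit of the Bap1LysM libraries alone, and with a library left out 9 to 14 rose and 8 to 21 fell. The fall from 16 to 10 came without Bap1LysM BMM 3 and that to 8 without Bap1LysM OC 2. Without Bap1LysM BMM 2, 9 rose. The interaction called 0 to 2 members with a library left out. The replicate block changed no other count by over 1.5 times, and the calls it changed with RANKL are given with those results. In replicates 1 to 3 alone Atp6ap1 stood at 0.33 and Hexa at 0.36 with adjusted p = 0.252 and 0.292. The interaction of Atp6v1b2 turned from -0.27 to 0.0096 with the libraries labelled Bap1LysM BMM 1 and OC 1 left out. The cause of these shifts was not tested. Leaving out the libraries with Lyz2 transcripts, and the set term without Bap1LysM OC 1, were chosen after seeing the data.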
